A study of Mus musculus with 12 samples.

Results

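The 10 genes described here encode phosphodiesterases that break down cyclic AMP (cAMP), and the question was how many c-Fos peaks lay in and around each of them in mouse CA1 neurons after kainic acid. The genes were Pde1a, Pde1c, Pde4a, Pde4b, Pde4c, Pde4d, Pde7b, Pde8a, Pde8b and Pde10a. They were taken by symbol from a RefSeq table of 21523 protein-coding genes, and all 10 were found. A peak was assigned to a gene when its midpoint lay inside the gene or within 100 kb of it. By this rule 9 of the 3294 peaks on assembled chromosomes (0.273%) belonged to these genes.

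Cyclic AMP is made by adenylyl cyclases when Gs-coupled receptors or calcium activate them, and it acts through protein kinase A, Epac exchange factors and cyclic nucleotide-gated channels. Phosphodiesterases end the signal by hydrolysing the nucleotide, and because different isoforms sit at different places in the cell they keep cAMP signals local. In hippocampal neurons this pathway feeds the transcription factor CREB and is known for its part in long-lasting synaptic change. The Pde1 enzymes are switched on by calcium and calmodulin and hydrolyse cyclic GMP as well. The Pde4 enzymes are specific for cAMP, are the targets of rolipram and are the mammalian relatives of the dunce gene of Drosophila. Pde7 and Pde8 enzymes are also specific for cAMP, and Pde10a, best known from striatal projection neurons, hydrolyses both nucleotides.

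The peaks came from CUT&RUN, an assay that ties a nuclease to an antibody so that the DNA around the antibody's target is cut free and sequenced. The 12 samples formed 4 groups of 3 replicates: kainic acid with a c-Fos antibody, kainic acid with rabbit IgG, PBS with the c-Fos antibody, and PBS with rabbit IgG. All mice were C57BL/6 with the genotype CaMK2a-Cre/+; LSL-Sun1-GFP/+, aged 3 to 4 weeks, and were taken 2 to 3 h after the injection of kainic acid, an agonist of glutamate receptors that makes neurons fire strongly, or of PBS. Nuclei of the hippocampal field CA1 were sorted on the Sun1-GFP tag, which CaMK2a-Cre switches on mainly in excitatory neurons, and each reaction held 50000 nuclei. The replicates are called biological, and how many animals each held is not stated in the labels. The file analysed was 1 list of peak positions, whose name calls them replicated and gives kainic acid, c-Fos and IgG as the comparison. It carries no score, no value per library and no read depth, so no spread between replicates can be given and no test between groups was possible. Intervals given below cover counting error over peaks only. A peak list does not measure transcription, so the identity of the sorted nuclei could not be checked from it: 3 of 8 markers of CA1 pyramidal neurons and 12 of 30 markers of other cell types had a peak inside or within 100 kb, against 21.8% of all protein-coding genes.

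Of these genes 3 had a peak. Pde4d held 6, Pde1a held 2 and Pde10a held 1, all inside the gene, and the 100 kb on either side added none to any of the 10. The other 7 genes, Pde1c, Pde4a, Pde4b, Pde4c, Pde7b, Pde8a and Pde8b, had no peak inside and none within 100 kb. A peak inside the gene was thus found in 3 of 10 genes (30%), against 5.52% of all protein-coding genes, and a peak inside or within 100 kb in the same 3 of 10, against 21.8%.

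**Figure D1:**
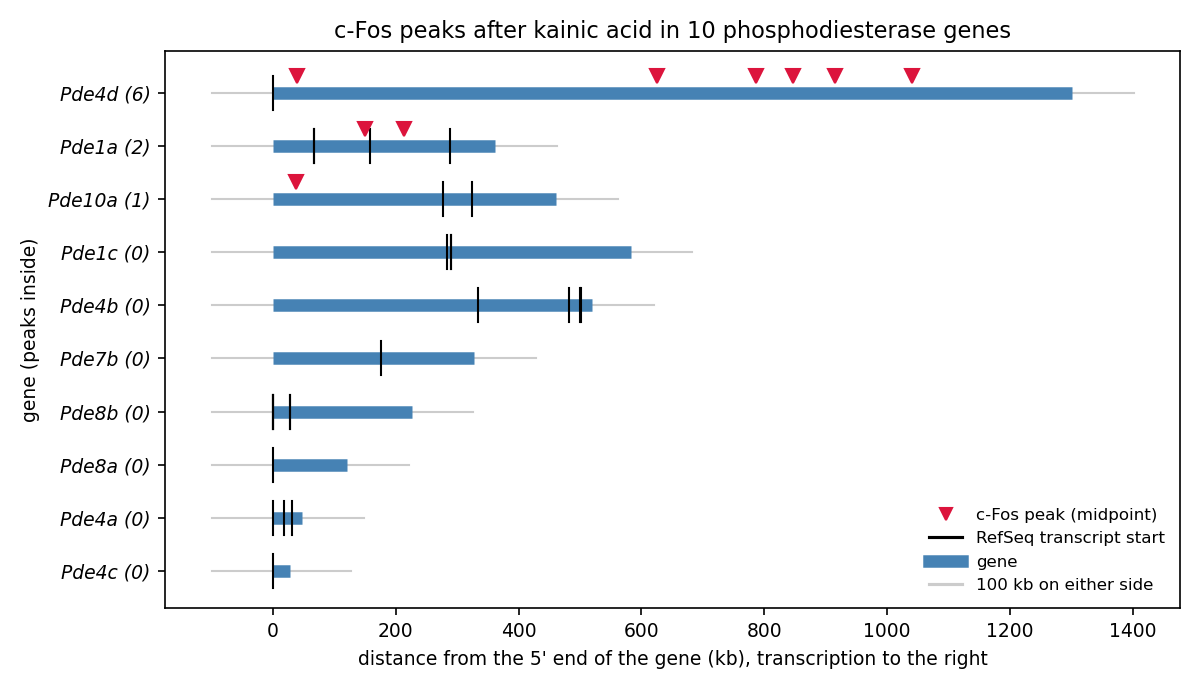
Each of the 10 genes is drawn from its 5' end (x axis, kb, direction of transcription to the right) as a blue bar with 100 kb on either side in grey; red triangles are midpoints of c-Fos peaks, black lines are transcript starts in the RefSeq promoter table, and the number of peaks inside stands beside each symbol. Pde4d carries 6 peaks, 5 of them between 625 and 1040 kb from its 5' end, whereas 7 genes carry none.

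These genes are long, and long genes offer more room for a peak, so the counts were read by length. The median length was 345 kb in the 10 genes and 17.4 kb in all protein-coding genes. Of the 6 genes of 300 kb and over, 3 held a peak, against 51.9% of the 557 protein-coding genes of that length. Neither of the 2 genes of 100 to 300 kb (Pde8a and Pde8b) held one, against 21.4% of genes of that length, and neither of the 2 under 50 kb (Pde4a and Pde4c) did, against 1.68%. In the length class that holds most of these genes, the share with a peak was thus near the background. These lengths follow the gene table, whose extents reach well beyond the outermost start in the promoter table for Pde1a, Pde1c, Pde4b, Pde7b and Pde10a. With genes begun at that start (an alternative chosen after seeing the data), only Pde4d stayed at 300 kb and over, where 52.8% of 394 genes held a peak. The other 5 moved to 100 to 300 kb, and 1 of 7 genes of that class (Pde1a) held a peak, against 20.7% of 1399. This alternative also covers fewer protein-coding genes in all. With the flanks included, the 3 of 6 longest genes compare with 60.7% of genes of 300 kb and over, the 0 of 2 in the middle class with 37.2%, and the 0 of 2 short genes with 18.1%.

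Per length, the 10 genes together had 0.226 peaks per 100 kb of gene (9 peaks in 3978 kb, exact 95% Poisson interval 0.103 to 0.429). The rate was 0.167 over all protein-coding genes (interval 0.160 to 0.175) and 0.204 over those of 300 kb and over (interval 0.189 to 0.221), and both lie inside the interval of the 10 genes. In both of these background rates a peak shared by overlapping genes is counted once for each gene. Their intervals do not allow for this and are too narrow as counting error over separate peaks. Of the 9 peaks 6 came from Pde4d, and without it the other 9 genes had 0.112 peaks per 100 kb (3 peaks in 2677 kb, interval 0.0231 to 0.328). The median number of peaks inside was 0 in the 10 genes and 0 in all protein-coding genes.

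**Figure D2:**
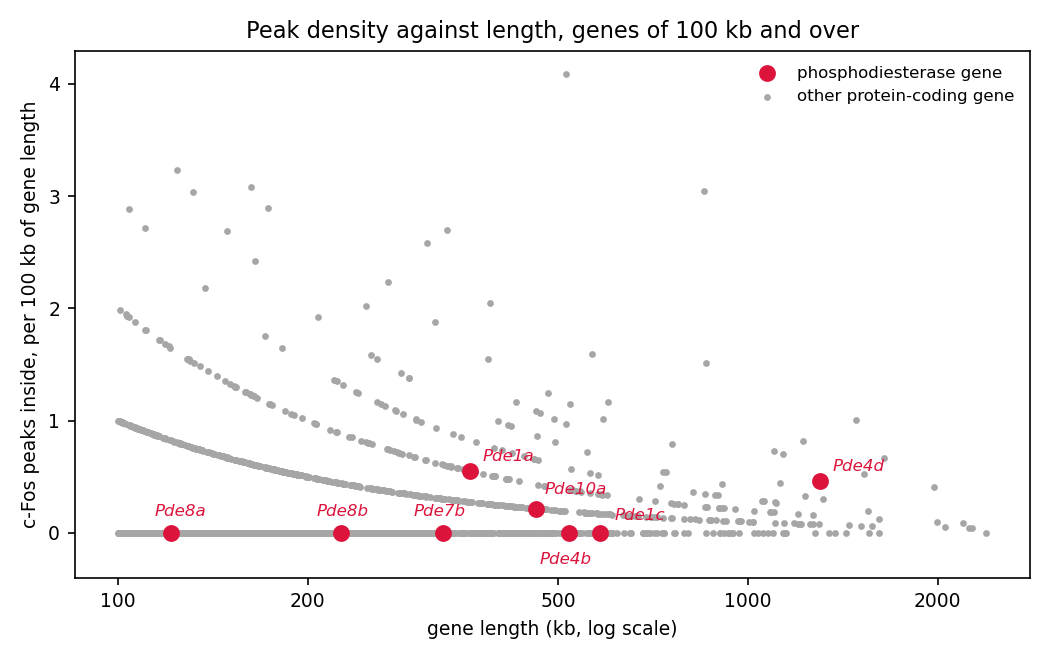
Peaks inside the gene per 100 kb of gene length (y axis) against gene length (x axis, kb, log scale) for protein-coding genes of 100 kb and over, with the 8 phosphodiesterase genes of that length in red and all others in grey. Pde1a (0.55) and Pde4d (0.46) stand highest among the red points, Pde10a has 0.22, and the remaining 5 lie at 0; the curved rows of grey points are genes with equal peak numbers.

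Pde4d, on chromosome 13 from 108654177 to 109955969 (mm10, plus strand, 1302 kb), encodes a cAMP-specific enzyme with many isoforms that start at different points within the gene. It held 6 peaks, or 0.461 per 100 kb of gene length (interval 0.169 to 1.00), where the pooled rate of genes of 300 kb and over would give 2.66. In that length class 15 of 557 genes held more peaks and 77 had a higher rate. Among the 59 protein-coding genes of 1000 kb and over, 43 held a peak, the median was 1 peak, and 7 held more than Pde4d.

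The first peak of Pde4d, from 108692299 to 108694467, was 2169 bp wide, the widest of the 9, and was centred 39.2 kb downstream of the gene's 5' end, within the first 3.01% of its length. No further peak followed for 586 kb. The second, from 109278288 to 109279737, lay 625 kb from the 5' end, near the middle of the gene. The third, from 109440531 to 109442054, lay 787 kb from the 5' end and overlapped the long noncoding RNA gene Gm32703 by 481 bp. The fourth (109499919 to 109501216), the fifth (109568247 to 109569770) and the sixth (109693497 to 109695199) followed at 846, 915 and 1040 kb. Peaks 2 to 6 thus fell within 415 kb, between 48.0% and 79.9% of the gene's length, at spacings of 162, 59.3, 68.4 and 125 kb. The last 262 kb of the gene held none. Pde4d also hosts the microRNA genes Mir582 and Mir1904, whose nearest peaks were 45.8 and 209.5 kb away.

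Pde1a, on chromosome 2 from 79834453 to 80196522 (minus strand, 362 kb), encodes a calcium- and calmodulin-stimulated enzyme. It held 2 peaks, or 0.552 per 100 kb (interval 0.0669 to 2.00), where the class rate would give 0.740. In genes of 300 kb and over 67 held exactly 2 peaks and 64 held more. The peak nearer to the 5' end, from 80046474 to 80047782 (1309 bp), was centred 149 kb into the gene and 8.23 kb upstream of an internal transcript start at 80038902. This was the shortest distance between any of the 9 peaks and a listed transcript start of its gene, with the internal starts of Pde4d not listed. The other peak, from 79982862 to 79983807 (946 bp), was the narrowest of the 9 and lay 63.8 kb further along the gene, 55.6 kb downstream of the same start. Both were centred near the middle of the gene in this extent, at 41.3% and 58.9% of its length. From its outermost listed start, at 80129412, Pde1a spans 295 kb, and the peak nearer to the 5' end lay 82.3 kb downstream of that start. The class values and positions along the gene given above hold for the longer extent only.

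Pde10a, on chromosome 17 from 8525187 to 8986648 (plus strand, 461 kb), encodes an enzyme that hydrolyses both cyclic nucleotides. Its 1 peak, from 8562012 to 8563298 (1287 bp), gave 0.217 per 100 kb (interval 0.00549 to 1.21), where the class rate would give 0.943. It was centred 37.5 kb from the 5' end of the gene as the table draws it. Both transcript starts in the promoter table, at 8801745 and 8849985, lie much farther along, and the peak was 239 kb upstream of the nearer one. The 5' part of this gene in the table thus reaches beyond the starts in the promoter table, and with the gene begun at the outermost of those starts, Pde10a had no peak inside or within 100 kb. Another protein-coding gene, T, lay 120 kb from the peak at 8562012, nearer to it than either listed start of Pde10a.

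The 9 peaks had a median width of 1450 bp, against 1341.5 bp over all 3294 peaks, and ranged from 946 to 2169 bp. None lay within 1 kb of an end of its gene. Their distances to the nearer gene end ran from 37.5 to 625 kb, and 7 of 9 lay over 100 kb from both ends. No 2 were close neighbours, since the shortest distance to any other peak was 59.3 kb. The next protein-coding gene lay 120 to 775 kb from these peaks, so by the 100 kb rule none of the 9 was in reach of a second protein-coding gene.

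A few promoter windows show how the peaks stood to transcript starts. Each runs from 250 bases before to 50 after a start, 5' to 3' on the gene's strand, from the RefSeq promoter table of GRCm38.p6. Shown are the single start that the table lists for Pde4d, the gene with most peaks; the Pde1a start nearest to a peak; the outer start of Pde10a; and the Pde1c start that holds an AP-1 motif, the letters bound by Fos-Jun dimers. Capitals mark the motif TGANTCA, which reads the same on both strands.
Pde4d (chr13:108653927-108654226, plus strand): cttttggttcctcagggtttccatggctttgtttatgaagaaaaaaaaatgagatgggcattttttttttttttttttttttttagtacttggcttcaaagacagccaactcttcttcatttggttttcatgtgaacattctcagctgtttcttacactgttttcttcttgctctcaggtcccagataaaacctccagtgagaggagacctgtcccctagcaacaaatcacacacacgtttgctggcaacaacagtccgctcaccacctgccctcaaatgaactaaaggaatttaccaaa
Pde1a (chr2:80038853-80039152, minus strand): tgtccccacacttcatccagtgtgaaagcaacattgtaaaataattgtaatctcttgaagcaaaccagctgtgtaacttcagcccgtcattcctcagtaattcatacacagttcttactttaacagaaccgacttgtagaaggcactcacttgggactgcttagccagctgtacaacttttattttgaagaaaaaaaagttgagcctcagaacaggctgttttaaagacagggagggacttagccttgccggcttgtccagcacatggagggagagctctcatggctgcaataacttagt
Pde10a (chr17:8801495-8801794, plus strand): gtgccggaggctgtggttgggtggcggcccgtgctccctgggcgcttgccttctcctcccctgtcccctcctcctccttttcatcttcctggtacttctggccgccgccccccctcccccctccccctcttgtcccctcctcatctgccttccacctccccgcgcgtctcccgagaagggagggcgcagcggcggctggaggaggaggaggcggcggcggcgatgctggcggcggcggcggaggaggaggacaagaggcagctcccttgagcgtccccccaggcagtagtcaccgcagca
Pde1c (chr6:56369585-56369884, minus strand): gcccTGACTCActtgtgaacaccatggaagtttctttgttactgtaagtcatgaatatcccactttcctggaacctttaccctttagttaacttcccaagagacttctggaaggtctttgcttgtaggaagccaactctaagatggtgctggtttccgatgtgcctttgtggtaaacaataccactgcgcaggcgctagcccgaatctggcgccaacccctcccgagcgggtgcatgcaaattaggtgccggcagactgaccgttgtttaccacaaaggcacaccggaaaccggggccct
The only match, TGACTCA, begins 246 bases before the Pde1c start at 56369634, and the nearest peak to that start lay 504 kb away.

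In all, the table listed 25 promoter windows for the 10 genes and at least 1 for each. The 5 windows of Pde8b overlap one another in part, so the 25 are not all separate sequences. For Pde4d it listed only the outermost start, so the distance of its peaks to its internal starts is unknown and those starts are not among the 25. The motif TGANTCA was present in 1 of the 25 (4%), against 7.85% of all 32619 promoter windows of 300 bases. The cAMP response element TGACGTCA, bound by CREB, was in 0 of 25, against 1.80%. No window of these genes overlapped a peak, whereas 1.04% of all windows did. A start within 10 kb of a peak midpoint was found in 1 of 25 (4%), the Pde1a start shown, against 3.12% of all. In the whole table TGANTCA was present in 17.5% of the 338 windows that overlapped a peak and in 7.74% of the others. A match in letters is a description and not a binding site, and the sequence under the 9 peaks themselves was not analysed here.

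Among the 7 genes without a peak, 3 were of 300 kb and over as the gene table draws them. From their outermost listed starts Pde1c spans 299.8 kb, Pde4b 186 kb and Pde7b 151 kb, and the class values that follow hold for the longer extents only. Pde1c, the calcium- and calmodulin-stimulated relative of Pde1a, spans 583 kb on chromosome 6 (56069798 to 56652510), where the class rate would give 1.19 peaks. Its nearest peak lay 204 kb beyond its 3' end, inside Itprid1. Pde4b, a cAMP-specific enzyme of the same subfamily as Pde4d, spans 520 kb on chromosome 4 (102087332 to 102607275), where 1.06 peaks would be given, and its nearest peak lay 280 kb beyond the 3' end, inside the neighbouring gene Sgip1. Pde7b, another cAMP-specific enzyme, spans 328 kb on chromosome 10 (20397052 to 20725078), where 0.670 would be given, and its nearest peak was 746 kb beyond the 5' end. In that length class 268 of 557 genes held no peak. A nearest peak farther away than that of Pde7b was found for 13.5% of the class, farther than that of Pde4b for 25.1% and farther than that of Pde1c for 31.2%.

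The 4 shorter genes differed in the distance to their nearest peak. Pde8b (chromosome 13, 95024105 to 95250401), a high-affinity cAMP-specific enzyme, came closest to having one. A peak 2514 bp wide inside Otp, a homeobox transcription factor gene, lay 142 kb beyond its 3' end, and another lay 175 kb beyond its 5' end, 6.19 kb from Crhbp, which encodes a binding protein of corticotropin-releasing hormone. Its relative Pde8a (chromosome 7, 81213265 to 81334535) had its nearest peak 397 kb away. Pde4c (chromosome 8, 70723835 to 70751186) had its nearest at 620 kb. Pde4a (chromosome 9, 21165700 to 21213248) had the most distant, at 1186 kb, with 42 protein-coding genes between the gene and that peak. Farther nearest peaks were found for 57.2% of genes of 100 to 300 kb in the case of Pde8b and for 33.7% in the case of Pde8a, and for 16.6% of genes under 50 kb in the case of Pde4a and 36.2% in the case of Pde4c. Over the 10 genes the median distance to the nearest peak, taken as 0 for a peak inside, was 242 kb, against 360 kb over all protein-coding genes. This comparison was not matched for length. At 300 kb and over the median was 102 kb in the 6 genes, against 0 kb in all genes of that class. These values mostly restate the shares with a peak inside, 3 of 6 against 51.9%. The 102 kb is the midpoint between 0 kb, for genes with a peak inside, and the 204 kb of Pde1c. The median distance was 269 against 209 kb at 100 to 300 kb, and 903 against 405 kb under 50 kb, with 2 of the 10 genes in each. All these classes follow the extents in the gene table.

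**Figure D3:**
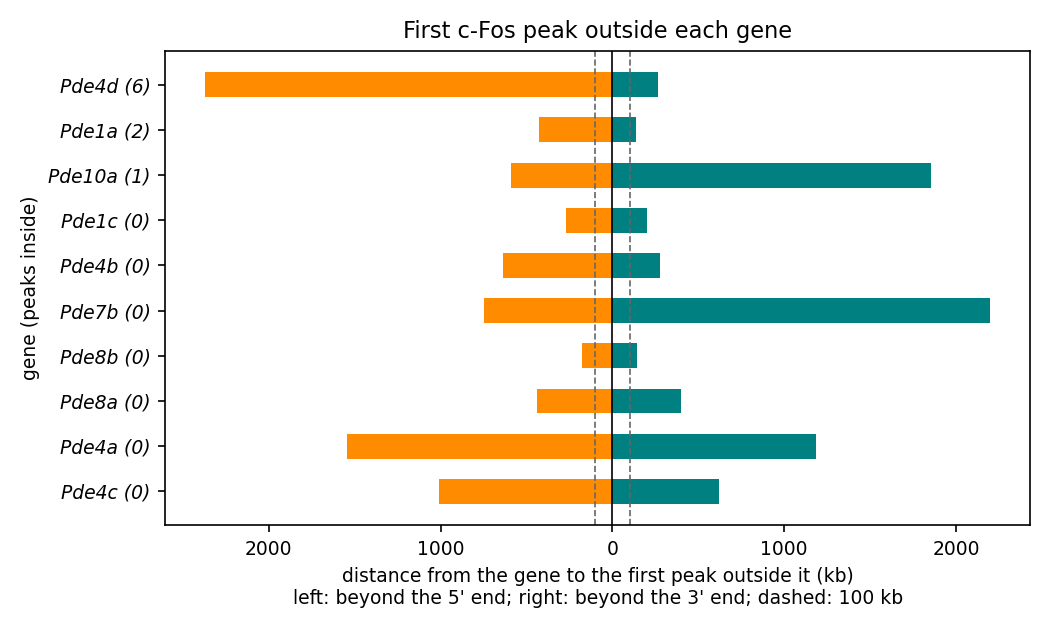
Distance in kb (x axis) from each of the 10 genes to the first peak outside it, beyond the 5' end (orange, left) and beyond the 3' end (teal, right), with dashed lines at 100 kb and the number of peaks inside beside each symbol. Every bar passes the dashed lines; the shortest are those of Pde1a (137 kb) and Pde8b (142 kb) on the 3' side, and the longest is that of Pde4d (2372 kb) on the 5' side.

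By subfamily, of the Pde4 genes, Pde4d held 6 peaks and Pde4a, Pde4b and Pde4c held 0. Pde4a and Pde4c are short, and the rate of their length class would give 0.0577 and 0.0332 peaks. Of the calcium-stimulated genes, Pde1a held 2 and Pde1c held 0, although Pde1c is the longer in the gene table (583 against 362 kb). From their outermost listed starts they span nearly the same length, 299.8 kb for Pde1c and 295 kb for Pde1a. Both Pde8 genes held 0. The 5 protein-coding genes of 300 kb and over whose peak rate was nearest to the 0.461 of Pde4d were Galnt17 (0.462 per 100 kb, 2 peaks), Dab1 (0.444, 5 peaks), Pcdh7 (0.480, 2 peaks), Zmat4 (0.481, 2 peaks) and Nlgn1 (0.439, 4 peaks). Likeness was taken as the smallest difference in this 1 rate from 1 peak list.

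The other phosphodiesterase genes were examined in the same way. None of 14 held a peak inside, against 5.52% of all protein-coding genes, and 3 of 14 (21.4%) had one inside or within 100 kb, against 21.8%. Those 3 were Pde6b, a subunit of the rod photoreceptor enzyme, at 2.82 kb, Pde2a, a dual enzyme stimulated by cyclic GMP, at 25.6 kb, and Pde6d at 72.1 kb. Pde11a, the only other one of 300 kb and over, had its nearest peak at 401 kb. The median length of the 14 was 78.7 kb, against 345 kb in the 10 genes described here, and the shares were not matched for it. Across all 24 phosphodiesterase genes, 3 held a peak inside (12.5%), against 5.52% of all protein-coding genes. Of the 7 that were of 300 kb and over, 3 held one, against 51.9% of genes of that length.

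The cAMP pathway around these enzymes was described by 6 further lists with 64 genes in all. A peak inside the gene was found in 9 of 64 (14.1%), against 5.52% of all protein-coding genes, and inside or within 100 kb in 26 of 64 (40.6%), against 21.8%. Their median length was 60.4 kb, longer than the 17.4 kb of all genes, and the share was not matched for it.

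Among enzymes that make cAMP, 2 of 10 adenylyl cyclase genes held a peak, against the 5.52% of all protein-coding genes that also applies to the lists that follow: Adcy2 held 2 and Adcy8, a calcium-stimulated cyclase, held 1. Among genes of protein kinase A, the main cAMP effector, 3 of 9 held one. These were Pkig with 2 peaks and Pkia with 1, which encode inhibitor peptides of the kinase, and Prkar1b with 1, which encodes a regulatory subunit. Of 10 anchoring protein genes only Akap6 held any, with 3. Of 10 genes of other effectors 2 held a peak, and Rapgef4, which encodes Epac2, held the most, with 3. Of 8 genes of the CREB family and its coactivators, Atf1 held 1. None of 17 genes of Gs-coupled receptors and G proteins held a peak, but 6 of them (35.3%) had one within 100 kb, against 21.8% of all protein-coding genes.

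**Figure D4:**
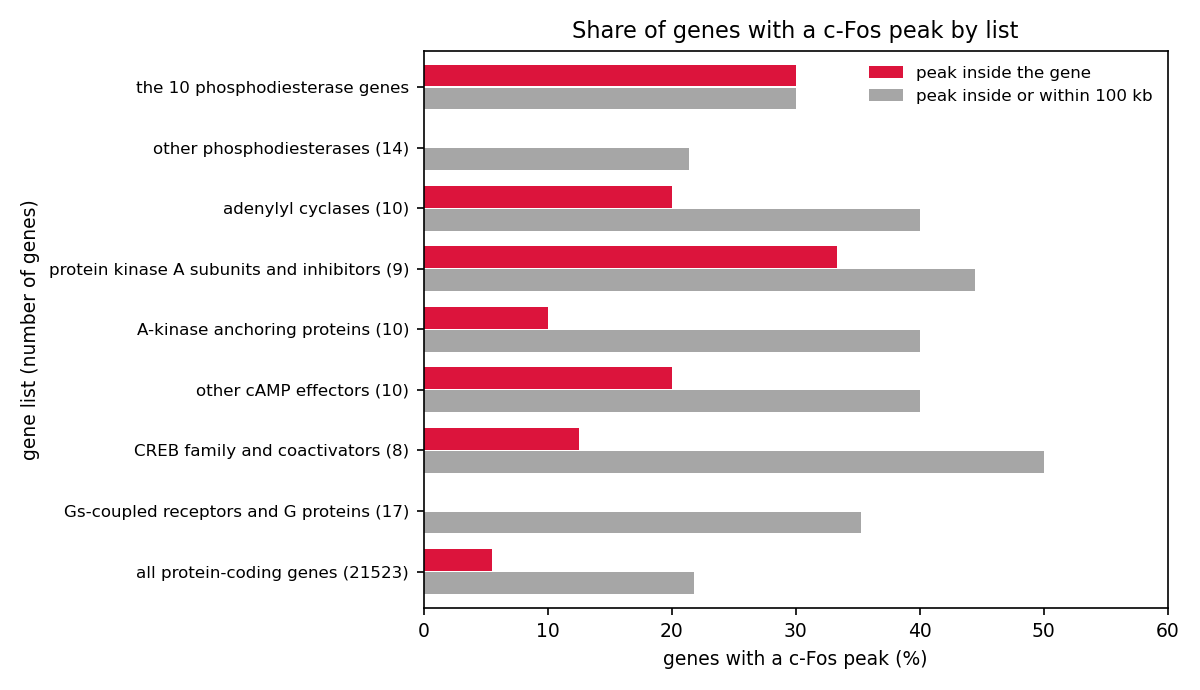
Share of genes (x axis, %) with a c-Fos peak inside the gene (red) and inside or within 100 kb (grey) for the 10 phosphodiesterase genes, the 14 other phosphodiesterase genes, 6 lists of the cAMP pathway and all 21523 protein-coding genes, with the number of genes in brackets. The 10 genes reach 30% on both measures, and the other phosphodiesterases reach 0% and 21.4%. The shares are not matched for gene length, whose median is 345 kb in the 10 genes and 78.7 kb in the 14 others.

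Values for the PBS groups were not analysed here, so whether any of the 9 peaks was also present without kainic acid was not tested. No gene expression was measured in these samples.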

How the data were processed

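The submitters' processing notes name Trimmomatic 0.36 and Bowtie2 2.2.9, bedtools 2.27.1 and also SEACR 1.1, with the builds mm10 and sacCer3. Their roles and settings, the peak threshold and the way replicates were combined were not stated in the labels. The deposited file holds positions and no other values, so weaker peaks are missing below an unknown threshold. It is attached to 1 kainic acid c-Fos sample and was treated as that group's list.

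Of 3295 peaks, 1 on an unplaced sequence was left out. Gene extents, which include predicted transcripts, came from a RefSeq table of GRCm38.p6, the assembly of mm10, without genes starting below 3000000, which seem to lie on scaffolds. Strand and starts came from the promoter table. Peaks were counted by midpoint, 1-based, and for each gene they fell in (Python 3.11.15, pandas 2.3.3, scipy 1.17.1 for exact intervals). Counting was checked on simulated peaks.

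The members, lists and alternatives were chosen with earlier results of these data known. Named were all members and, of each other list, up to 4 genes with a peak inside. Those with a peak only within 100 kb and Pde11a were named after their values were seen. Of the genes the rule chose, 1 is not reported here by name. No test was made, for want of values per replicate. Marker lists covered CA1 pyramidal neurons, interneurons (5 of 8 with a peak inside or within 100 kb), astrocytes (1 of 6), the oligodendrocyte lineage (2 of 6), microglia (2 of 5) and vascular cells (2 of 5).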

Additional observations from a re-analysis of the deposited data

How the results depend on the processing

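No paired analysis was possible because values per replicate are lacking, and so none could be left out. Windows of 10 and 50 kb, merging peaks within 500 bp, any overlap of at least 1 bp and the nearest gene only gave 3 genes with a peak and, where counted, 9 peaks inside. These settings could not change the counts for the 10 genes in the gene table's extents. All 9 peaks lay inside, at least 37.5 kb from a gene end, 59.3 kb from another peak and 120 kb from another protein-coding gene. The share of all protein-coding genes with a peak moved with the window, to 7.55% at 10 kb and 14.0% at 50 kb, against 21.8% at 100 kb. With a window of 200 kb Pde8b joined them with 3 peaks, making 4 genes, against 34.4% of all protein-coding genes. With only the 1647 peaks of at least the median width, 1 gene had a peak inside (against 3.18%) and 1 had one inside or within 100 kb (against 12.6%). That gene was Pde4d, and 5 peaks remained, or 0.126 per 100 kb; the peaks of Pde1a and Pde10a are narrower than the median, by construction. Leaving out Pde4d left 3 peaks inside, 2 genes and 0.112 per 100 kb. Chosen after seeing the data, a gene drawn from its outermost start in the promoter table left 2 genes (against 5.00% inside and 21.3% within 100 kb) and 8 peaks (0.282 per 100 kb), without that of Pde10a. The shares against which these are set come from a smaller set of protein-coding genes than the other shares, so they are not directly comparable with them. Wherever a peak falls just under the authors' unknown threshold, a gene is listed here without one.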

Other observations

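Long genes without a peak nearby were common in this list. Of the 557 protein-coding genes of 300 kb and over in the gene table, 176 (31.6%) had no peak inside or within 200 kb, and Pde1c, Pde4b and Pde7b were among them. The nearest peaks of Pde4b and Pde4d outside their own bounds lay in the genes directly beyond their 3' ends, Sgip1 at 280 kb and Rab3c at 263 kb, with no protein-coding gene lying wholly between. On the 5' side the next peak was 637 kb from Pde4b and 2372 kb from Pde4d. Pkig, which encodes an inhibitor peptide of protein kinase A, had 2.94 peaks per 100 kb (2 peaks in 67.9 kb). Rapgef4 had 1.09 (3 peaks in 276 kb), and both rates are above the 0.461 of Pde4d. So are those of Atf1 (2.99, 1 peak in 33.4 kb), Pkia (1.27), Prkar1b (0.750), Akap6 (0.656) and Adcy2 (0.527). The other genes of the 6 lists had lower rates. In a short gene 1 or 2 peaks give a high rate. Each of these values is a description of 1 peak list.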
